A study of Mus musculus with 6 samples.

Results

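The GATA factors and their erythroid transcription partners were followed here as 10 genes, Gata1, Gata2, Zfpm1, Tal1, Lmo2, Ldb1, Klf1, Gfi1b, Nfe2 and Foxo3. They were chosen by name, as the non-control probes whose annotated gene is a member or carries its earlier symbol. This gave 12 probes of 55681 on the array, and all 10 genes stood among the 14422 genes tested. Zfpm1 and Foxo3 had 2 probes each and the other 8 genes had 1 each.

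The cells were G1E-ER-GATA-1, mouse erythroid progenitors in which the native Gata1 gene is disrupted and GATA-1 activity comes from a fusion with the hormone-binding part of the estrogen receptor. In 1 group, SetD8-specific siRNA was delivered (3 arrays), and in the other, non-targeting siRNA (3 arrays). SetD8 (gene Setd8, current symbol Kmt5a) is the methyltransferase that places a single methyl group on lysine 20 of histone H4. In both groups cells were nucleofected at 0 h and again at 24 h with 240 nmol siRNA, received β-estradiol from 24 h on, and were harvested at 48 h. Both groups grew with erythropoietin, puromycin and medium conditioned by cells that make Kit ligand. Both groups were thus treated with estradiol, and no array shows the cells without it. The model is limited to 1 line. The labels do not state that replicates are independent cultures, so p-values reflect the spread of these arrays alone, which may be technical.

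GATA-1 is the zinc finger factor that drives red cell maturation. It acts with FOG-1, the product of Zfpm1, and within a complex of TAL1, LMO2 and LDB1 that binds GATA and E-box elements. GATA-2 is its relative in progenitors, and during maturation GATA-1 replaces it at shared sites and turns off Gata2 itself. KLF1 binds CACCC elements of globin and membrane genes, GFI1B represses progenitor genes, NF-E2 (Nfe2) pairs with small Maf proteins at the globin control region, and FOXO3 directs antioxidant and autophagy genes in maturing cells. The comparison asks whether transcripts of these factors differ when Setd8 is depleted while GATA-1 is active.

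In a line without its own Gata1, what the Gata1 probe can detect depends on where it lies. The Gata1 probe lies on the minus strand of mm9 at chrX:7536392-7536451, at bases 1741 to 1800 of its RefSeq transcript. It has a stop codon in each of its 3 reading frames and holds AATAAA, the hexamer that directs cleavage and polyadenylation, at 2 places. The probe thus cannot lie wholly inside a coding sequence. No source used here says whether the fusion transcript carries this stretch. Whether the probe reads the fusion transcript, a transcript of the native locus or both is therefore not known. Of the 12 probes, 5 hold AATAAA. The 30 bases around it, with the hexamer in capitals, are printed to place these probes near transcript ends. They lie at chrX:7536396-7536425 (minus strand) for Gata1, chr8:124861116-124861145 (plus strand) for Zfpm1, chr19:46107516-46107545 (minus strand) for Ldb1 and chr2:28464982-28465011 (minus strand) for Gfi1b, all on mm9.
Gata1: ggtatttggttaAATAAAtgtcagtgtcaa
Zfpm1: cccttgacacttAATAAAgacattcggtgt
Ldb1: agcagaagacggAATAAAgagactgggcgt
Gfi1b: gttgatgtaaatgtaAATAAAggtgggttt

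All 12 probes span 60 continuous genome bases, and 11 are named on a RefSeq accession. The 2 Zfpm1 probes share 55 bases and are not separate measurements of the transcript. The 2 Foxo3 probes start 61678 bases apart, and the one not on a RefSeq accession is named on a cDNA clone. An mm9 gene annotation was not used here, so exon and UTR assignments are not given for the probes.

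RefSeq (GRCm38.p6) gave 12 promoter windows, from 250 bases before to 50 bases from the start on, for 8 members. Lmo2 and Nfe2 had no entry. The GATA element, searched as AGATAA or TGATAA on both strands, stood in 4 windows, those of Tal1, Ldb1, Klf1 and Gfi1b, each a different gene, and in 18.6% of all 32851 windows of the same length. The other elements searched on both strands were CCACACCC (KLF1), TGAGTCA (NF-E2) and GTAAACA (FOXO). They stood in 0 of the 12 windows, against 3.56%, 5.20% and 3.65% of all windows. These letters are a description and do not mark a bound site. The 250 bases before the start of Klf1 (GRCm38.p6 chr8:84901732-84901981, plus strand) and of Gfi1b (chr2:28621983-28622232, minus strand) are shown because their GATA element, in capitals, is the one nearest to a start among the members. Counted from the start, its first base lies at -80 in Klf1 and at -120 in Gfi1b.
Klf1: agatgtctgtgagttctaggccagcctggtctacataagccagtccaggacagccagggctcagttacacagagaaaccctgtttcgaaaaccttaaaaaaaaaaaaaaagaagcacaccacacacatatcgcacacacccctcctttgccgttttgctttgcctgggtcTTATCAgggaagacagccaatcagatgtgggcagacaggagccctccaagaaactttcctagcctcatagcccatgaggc
Gfi1b: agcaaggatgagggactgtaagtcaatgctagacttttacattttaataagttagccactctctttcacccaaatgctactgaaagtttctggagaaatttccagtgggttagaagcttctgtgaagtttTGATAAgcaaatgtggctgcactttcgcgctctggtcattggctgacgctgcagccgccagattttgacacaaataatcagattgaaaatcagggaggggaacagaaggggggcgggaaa

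Signal was measured as Cy3 intensity of 1-colour Agilent arrays. Each array had 59305 non-control spots, of which 60.3% to 68.6% were well above background on SetD8 siRNA arrays and 40.2% to 82.5% on control siRNA arrays. No spot was saturated. The number of arrays limits the precision. Values are given on 2 scales. The first is log2 of the scanner's processed signal minus each array's 75th percentile. The second is log2 after normexp background correction and quantile normalization, and it is used below unless the first is named. The second scale was taken for single genes after an earlier look at these data. There, the control arrays differed in dim signal and the first scale called no gene. The arrays lay on 3 slides: slide 1 held SetD8 1, SetD8 2 and control 1, slide 2 held control 2 alone, and slide 3 held SetD8 3 and control 3.

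The targeted gene was lower in every SetD8 siRNA array. Setd8's brighter probe read 9.58, 9.26 and 9.24 in SetD8 siRNA arrays, against 11.49, 11.57 and 11.23 in control siRNA arrays. The difference of -2.07 (4.20-fold lower) passed limma with Benjamini-Hochberg adjustment over all genes (adjusted p = 0.00843) after quantile normalization. This call was lost without control 1 or without any of the 3 SetD8 siRNA arrays, with limma adjusted p from 0.0562 to 0.0781 and differences from -2.18 to -2.01. At the 75th percentile scaling the difference was -2.24 with adjusted p = 0.682 in limma, and without control 2 it was -1.84 with adjusted p = 0.00835. The exact two-sided permutation test gave p = 0.1 for each of its 2 probes on both scales, the smallest that 3 against 3 arrays allow. The labelled cell type was checked on erythroid markers: the 8 of 10 matched to a tested gene, among them Hba-a1, Alas2, Epor, Tfrc, Slc4a1 and Epb42, were well above background on all 6 arrays.

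None of the 10 genes passed the test. In limma, 0 of 10 members had an adjusted p under 0.05 after quantile normalization, where 244 of 14422 genes did (1.69%; 210 or 1.46% higher and 34 or 0.236% lower). Scaled to the 75th percentile, 0 of 10 members passed, against 0% of all genes. In a fit of all kept probes, 0 of the 12 member probes passed, against 0.323% of 30949 probes after quantile normalization and 0% at the 75th percentile scaling. At an unadjusted p under 0.05 the members again gave 0 on both scales, against 15.8% of all genes after quantile normalization and 3.07% at the 75th percentile scaling. The members' median difference after quantile normalization was 0.03, with 5 members above 0 and 5 below it, and the median of all genes was also 0.03. Their differences ranged from -0.17 to 0.22. The 95% confidence interval of all 10 differences lay within 1.5-fold in either direction, which held for 42.9% of all genes and for 47.1% of the 10779 genes whose probe was well above background on all 6 arrays. This bound holds on this scale, for the probe that stood for each gene and for the spread of these arrays. The second Foxo3 probe reached beyond 1.5-fold (95% interval -0.76 to 0.42). On the first scale 0 of 10 intervals (0% of all genes) lay within 1.5-fold and 2 of 10 within 2-fold.

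**Figure D1:**
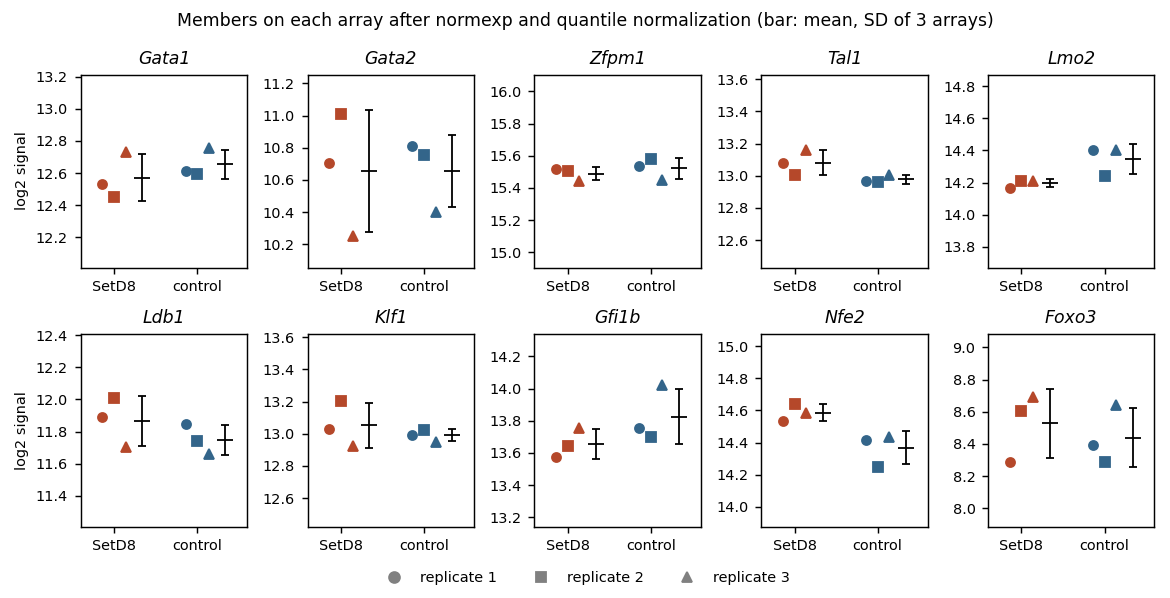
Log2 signal of each of the 10 genes after normexp and quantile normalization, with a panel per gene, SetD8 siRNA arrays on the left and control siRNA arrays on the right. Symbols mark the replicate number, the black bar gives mean and SD of 3 arrays, and every axis spans the same log2 range. The groups overlap except for Tal1, Lmo2 and Nfe2.

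The GATA factors themselves did not pass the test. Gata1 read 12.53, 12.45 and 12.73 in SetD8 siRNA arrays and 12.61, 12.59 and 12.76 in control siRNA arrays. The groups overlapped, and replicate 3 was the highest of both. The difference was -0.08 ± 0.12 (SE; 95% interval -0.38 to 0.22), with limma adjusted p = 0.818. Its probe was well above background on every array, with a processed signal of 3481 to 6481 in SetD8 siRNA arrays and 6326 to 9116 in control siRNA arrays. Gata2, the progenitor GATA factor that GATA-1 turns off, read 10.70, 11.01 and 10.25 in SetD8 siRNA arrays and 10.81, 10.75 and 10.40 in control siRNA arrays. The groups overlapped over their whole range, and both arrays of slide 3 were the lowest of their group. Gata2 had the widest spread of the 10 genes, with an SD of 0.38 in SetD8 siRNA arrays and 0.22 in control siRNA arrays. Its mean was 10.66 in both groups (95% interval of the difference -0.53 to 0.53; limma adjusted p = 0.999). Within slide 1 Gata2 differed by 0.04 and within slide 3 by -0.15. The balance of Gata1 to Gata2, as the log2 ratio of their processed signals within an array, was 1.85, 1.53 and 2.60 in SetD8 siRNA arrays and 1.95, 2.04 and 2.41 in control siRNA arrays. The ratio was highest on slide 3 in both groups, and the groups overlapped. Only its movement between arrays can be read, since different probes set its height.

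Zfpm1, whose product FOG-1 binds the amino-terminal finger of GATA-1, had an SD of 0.04 in SetD8 siRNA arrays and 0.06 in control siRNA arrays. Its residual SD, taken within both groups together, was the lowest of the members after quantile normalization, at 0.054. Within a single group Lmo2 varied less in SetD8 siRNA arrays (SD 0.02), and Tal1 (0.03) and Klf1 (0.04) in control siRNA arrays. At the 75th percentile scaling Zfpm1 had SDs of 0.16 in SetD8 siRNA arrays and 0.73 in control siRNA arrays. After quantile normalization the probe that stood for Zfpm1 read 15.52, 15.51 and 15.44 in SetD8 siRNA arrays and 15.54, 15.58 and 15.45 in control siRNA arrays. The difference was -0.03 ± 0.10 (SE; limma adjusted p = 0.923) and the groups overlapped. The second Zfpm1 probe, which shares most of its bases, differed by -0.02.

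The genes of the TAL1, LMO2 and LDB1 complex lay on either side of 0. Tal1, the basic helix-loop-helix factor of the complex, read 13.08, 13.01 and 13.16 in SetD8 siRNA arrays and 12.97, 12.96 and 13.01 in control siRNA arrays. The lowest SetD8 siRNA array, 13.0078, lay above the highest control siRNA array, 13.0070, by less than the second decimal. The difference was 0.10 ± 0.10 (SE; limma adjusted p = 0.723). Lmo2, the LIM-only bridge of the complex, read 14.17, 14.21 and 14.21 in SetD8 siRNA arrays and 14.40, 14.24 and 14.40 in control siRNA arrays. The groups did not overlap, and control 2 was the control array nearest to the SetD8 siRNA arrays. The difference was -0.15 ± 0.11 (SE; 95% interval -0.41 to 0.10; limma adjusted p = 0.584). Within slides Lmo2 differed by -0.22 on slide 1 and -0.19 on slide 3. Ldb1, the self-associating cofactor that joins distant elements, read 11.89, 12.01 and 11.70 in SetD8 siRNA arrays and 11.85, 11.74 and 11.66 in control siRNA arrays. The groups overlapped (difference 0.12 ± 0.13, SE; limma adjusted p = 0.741).

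Klf1, the activator of adult globin and membrane genes, read 13.03, 13.20 and 12.92 in SetD8 siRNA arrays and 12.99, 13.03 and 12.95 in control siRNA arrays. The SetD8 siRNA arrays held both the highest and the lowest Klf1 value, and the difference was 0.06 ± 0.12 (SE; limma adjusted p = 0.869). Gfi1b, the repressor of progenitor genes, read 13.57, 13.64 and 13.75 in SetD8 siRNA arrays and 13.76, 13.70 and 14.02 in control siRNA arrays. SetD8 3 lay between control 1 and control 2, so the groups overlapped. Gfi1b had the most negative difference of the members, -0.17 ± 0.13 (SE; 95% interval -0.48 to 0.15; limma adjusted p = 0.628).

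Nfe2 had the most positive difference of the 10 genes and did not pass the test. This gene encodes the large subunit of NF-E2. It read 14.54, 14.64 and 14.58 in SetD8 siRNA arrays and 14.42, 14.25 and 14.43 in control siRNA arrays. Every SetD8 siRNA array lay above every control siRNA array, and control 2 was the lowest. The difference was 0.22 ± 0.11 (SE; 95% interval -0.05 to 0.48; limma adjusted p = 0.417). Within slides it was 0.17 on slide 1 and 0.15 on slide 3, and at the 75th percentile scaling it turned to -0.06. The 3 genes outside the list whose values, centred over the 6 arrays, lay nearest to those of Nfe2 were Ubl5, Eif3k and Gm7932, with root mean square differences of 0.025, 0.025 and 0.036.

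Foxo3 was the member whose probes disagreed. The probe on the RefSeq transcript read 8.29, 8.61 and 8.69 in SetD8 siRNA arrays and 8.39, 8.29 and 8.64 in control siRNA arrays. The groups overlapped and the difference was 0.09 ± 0.16 (SE; limma adjusted p = 0.856). The probe named on a cDNA clone read 8.06, 8.02 and 8.85 in SetD8 siRNA arrays and 8.58, 8.57 and 8.29 in control siRNA arrays. SetD8 3 was its highest array and SetD8 1 and SetD8 2 its lowest, and the probe differed by -0.17 (95% interval -0.76 to 0.42). Over the mean of both probes Foxo3 differed by -0.04, so its direction depended on the probe. Foxo3 also had low processed signals, 119 to 379 over both probes and all arrays.

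**Figure D2:**
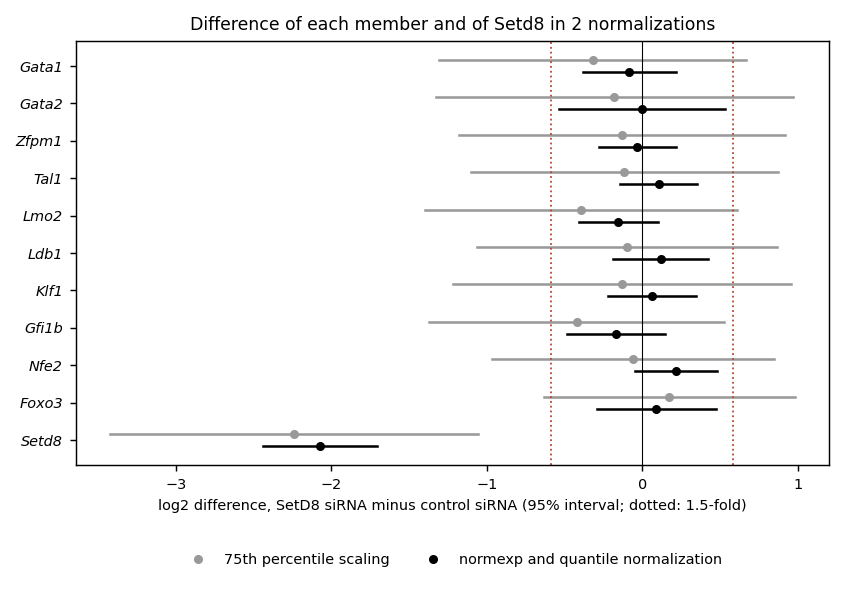
Log2 difference, SetD8 siRNA minus control siRNA, of the 10 genes and of Setd8, with 95% confidence intervals from limma at the 75th percentile scaling (grey) and after normexp and quantile normalization (black). Dotted lines mark 1.5-fold; the black intervals of all 10 genes lie between them, the grey ones reach beyond, and Setd8 lies at -2.07 (black) and -2.24 (grey).

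After quantile normalization 3 of 10 members, Tal1, Lmo2 and Nfe2, had groups that did not overlap, against 23.7% of all genes, a share near that of the whole table. Scaled to the 75th percentile, 0 of 10 members had separate groups, against 7.54% of all genes. Nfe2 and Lmo2, picked after their values were seen, had differences of opposite sign after quantile normalization, and their log2 ratio within an array needs no scaling between arrays. From the processed signals that ratio was 0.18, 0.18 and 0.19 in SetD8 siRNA arrays and -0.20, -0.28 and 0.03 in control siRNA arrays. The SetD8 siRNA arrays lay close together above the spread control siRNA arrays. The mean ratio was 0.18 ± 0.01 in SetD8 siRNA arrays and -0.15 ± 0.16 in control siRNA arrays (SD, n = 3 each). Since the pair of Nfe2 and Lmo2 was picked by its values, this is a description with no test. Groups also did not overlap for Tal1 over Lmo2 (means -1.23 in SetD8 siRNA arrays and -1.51 in control siRNA arrays). The same held for Ldb1 over Lmo2 (means -2.60 and -2.90), while Klf1 over Gata1 overlapped. The pairs that separated all share Lmo2, whose own groups did not overlap, so they are not independent observations. The share of all gene pairs that separate was not computed.

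**Figure D3:**
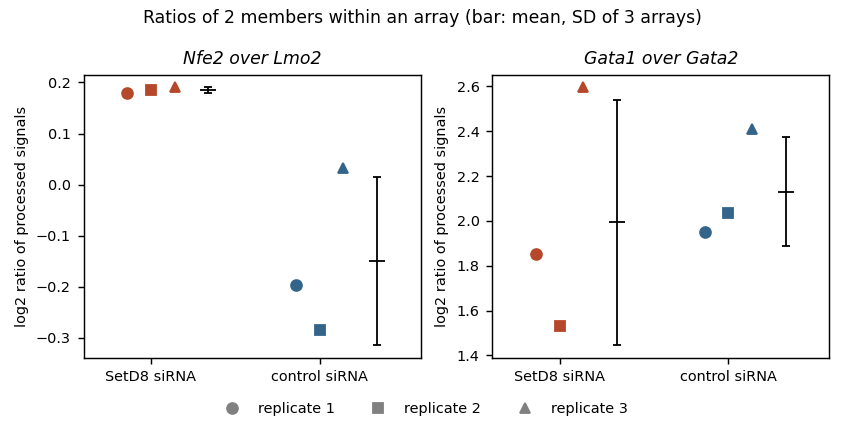
Log2 ratio of processed signals within each array for Nfe2 over Lmo2 (left panel) and Gata1 over Gata2 (right panel), with SetD8 siRNA arrays left and control siRNA arrays right in each. Symbols mark the replicate number and bars give mean and SD of 3 arrays; the Nfe2 over Lmo2 ratio is 0.18 to 0.19 on SetD8 siRNA arrays and -0.28 to 0.03 on control siRNA arrays, while the groups overlap for Gata1 over Gata2.

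The members moved together from array to array at the 75th percentile scaling. Set against its own control mean, a member lay on average 0.27 lower on SetD8 1, 0.12 lower on SetD8 2 and 0.11 lower on SetD8 3, and 0.10 higher on control 1, 0.55 higher on control 2 and 0.64 lower on control 3. Control 2 was the highest array for 9 of the 10 genes, Foxo3 being the exception, and control 3 the lowest for 8. Control 2 also had the fewest spots well above background (40.2%) and control 3 the most (82.5%). On this scale 9 members were negative and Foxo3 positive, from -0.42 for Gfi1b to 0.17 for Foxo3, with limma adjusted p from 0.951 to 0.980 and a median of -0.13. The median was 0.04 over all genes and -0.10 over the 10779 genes whose probe was well above background on all 6 arrays, of which 6518 were negative, so the members lay near genes of like detection. Without control 3, Gata1 differed by -0.64, Lmo2 by -0.76 and Gfi1b by -0.70. Without control 2, they differed by -0.03, -0.10 and -0.13. After quantile normalization the mean deviation per array lay between -0.04 and 0.08.

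**Figure D4:**
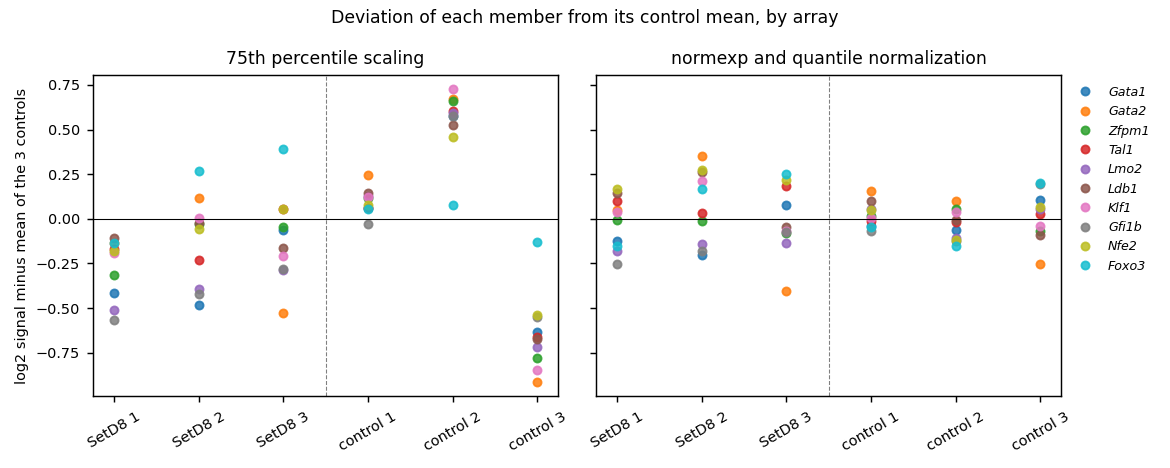
Deviation of each of the 10 genes (colours) from its own mean over the 3 control siRNA arrays, in log2 units, on the 3 SetD8 siRNA arrays and then the 3 control siRNA arrays. At the 75th percentile scaling (left panel) 9 genes are highest on control 2 and 8 are lowest on control 3; after normexp and quantile normalization (right panel) the deviations lie nearer to 0.

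The fit with weights per array was the alternative that called members. Scaled to the 75th percentile, it gave Gata1 -0.40 (limma adjusted p = 0.0309), Lmo2 -0.53 (limma adjusted p = 0.00817) and Gfi1b -0.41 (limma adjusted p = 0.0209), and it called 2379 genes higher and 3695 lower. These 3 of 10 members compare with 42.1% of all genes in that fit. After quantile normalization it gave Lmo2 -0.21 (limma adjusted p = 0.0477) and called 1986 genes higher and 1907 lower, so that 1 of 10 members passed, against 27% of all genes.

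The partners of the members were taken from lists chosen with earlier results of these data known. No partner passed the limma test after quantile normalization. The counts were 0 of 3 other GATA and FOG genes, 0 of 12 partners and relatives of TAL1, LMO2 and LDB1, 0 of 19 subunits of the NuRD, CoREST and CtBP corepressors, 0 of 11 coactivators and remodelers, 0 of 8 small Maf and CNC factors, 0 of 12 other KLF and SP factors, and 0 of 16 FOXO factors and targets. At an unadjusted p under 0.05 these 7 lists gave 0, 3, 3, 4, 0, 3 and 2 genes in the same order, against 15.8% of all genes. Gata4, Gata6 and Zfpm2 were among the genes with no kept probe. The genes with the smallest p in their lists are given here with limma adjusted p. Gata5 differed by 0.15 (0.821) and Trps1, an atypical GATA repressor, by -0.10 (0.901). Ssbp4, whose family stabilises LDB1, differed by 0.52 (0.122) and Tcf3, the E-protein partner of TAL1, by -0.42 (0.235). In the NuRD and CoREST complexes, Rbbp7, a histone-binding subunit, differed by -0.36 (0.183) and Hmg20b, the CoREST subunit recruited with GFI1B, by 0.35 (0.210).

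Among the coactivators, Ep300, the acetyltransferase that acetylates GATA-1, read 8.13, 7.77 and 7.88 in SetD8 siRNA arrays and 8.82, 8.48 and 8.91 in control siRNA arrays. The groups did not overlap, and the difference of -0.81 did not pass (limma adjusted p = 0.0733). The coactivator list had a median of -0.22 with 7 of 11 genes negative, against a median of 0.03 over all genes. Mafg, a small Maf partner of NF-E2, differed by -0.28 (limma adjusted p = 0.325) and Maff by -0.41 (limma adjusted p = 0.486). Klf3, a repressor that competes for KLF1 sites, differed by 0.41 (limma adjusted p = 0.173) and Klf6 by 0.40 (limma adjusted p = 0.255). Of the FOXO targets, Map1lc3b, an autophagosome protein, differed by 0.37 (limma adjusted p = 0.167) and Cat, which encodes catalase, by 0.35 (limma adjusted p = 0.254).

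Other transcription factors of the blood lineages gave no call after quantile normalization, 0 of 14 in the other-lineage list and 0 of 14 in the list of other erythroid factors, with 3 genes of each at an unadjusted p under 0.05 in limma. Meis1, a stem cell and megakaryocyte factor, read 9.84, 9.76 and 9.72 in SetD8 siRNA arrays and 8.96, 8.93 and 8.14 in control siRNA arrays. Every SetD8 siRNA array lay above every control siRNA array, control 3 was far below the other controls, and the difference of 1.10 did not pass (limma adjusted p = 0.0817). Spi1, which encodes the myeloid factor PU.1 that opposes GATA-1, differed by 0.63 (limma adjusted p = 0.142). Stat5a, the effector of the erythropoietin receptor, differed by 0.50 (limma adjusted p = 0.0893), and E2f2, a cell cycle factor of late erythroblasts, by -0.40 (limma adjusted p = 0.203).

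Genes downstream of the members held 2 calls after quantile normalization, in lists that were also chosen with earlier results of these data known. Of all genes 1.46% were called higher and 0.236% lower. Of 24 GATA-1-activated genes tested, 1 rose and 0 fell: Tspo2, an erythroid membrane protein of the translocator family, read 11.81, 11.88 and 11.84 in SetD8 siRNA arrays and 10.86, 10.67 and 11.03 in control siRNA arrays (difference 0.99, limma adjusted p = 0.0237). The other 23 did not pass, among them Ank1, the ankyrin of the red cell membrane (-0.48, limma adjusted p = 0.0810), and Alas2, the first enzyme of erythroid heme synthesis (0.03, limma adjusted p = 0.954). The list's median difference was 0.01, with 12 genes on each side of 0. Of 13 GATA-1-repressed genes, 1 rose and 0 fell: Vim, an intermediate filament protein lost in red cell maturation, read 9.12, 9.17 and 9.25 in SetD8 siRNA arrays and 8.07, 8.16 and 7.998 in control siRNA arrays (difference 1.10, limma adjusted p = 0.0109). Of these 13 genes 10 were positive, with a median of 0.22. Of all 14422 genes 7939 were positive, with a median of 0.03. Of the 10779 genes whose probe was well above background on all arrays, 5333 were positive, with a median of -0.003. The direction of a difference thus went with detection, and the part of dim genes in the lean of this list was not tested. Of 15 KLF1 targets, 0 passed and 3 had an unadjusted p under 0.05 in limma, and their median was 0.08. Slc4a1, the band 3 anion exchanger, also stood among the 24 GATA-1-activated genes. It read 11.04, 10.91 and 12.25 in SetD8 siRNA arrays and 12.46, 12.33 and 12.97 in control siRNA arrays, and the groups did not overlap. It was the most negative KLF1 target at -1.19 (limma adjusted p = 0.194), and the slide 3 array was the highest of each group.

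Neither Tspo2 nor Vim passed at the 75th percentile scaling, where they differed by 0.88 and 1.24 (limma adjusted p = 0.951 for each). After quantile normalization the calls of Tspo2 and Vim were lost with the slide as a block (limma adjusted p = 0.0916 and 0.0648). They were also lost without control 1 or without any of the SetD8 siRNA arrays, with the differences within 0.97 to 1.01 for Tspo2 and 1.07 to 1.13 for Vim. Markers of other blood cells were measured on the same arrays. After quantile normalization 2 of 12 megakaryocyte markers were called higher, Itgb3 (0.80) and Gp1ba (0.79), and 1 of 5 myeloid markers, Cd68 (0.73). This compares with 1.46% of all genes called higher. At an unadjusted p under 0.05 in limma these 2 lists gave 5 of 12 and 2 of 5, against 15.8% of all genes. The summed processed signal of 13 megakaryocyte markers was 12609 to 30726 in SetD8 siRNA arrays and 13333 to 20950 in control siRNA arrays, and that of 11 myeloid markers 3677 to 4702 in SetD8 siRNA arrays and 3977 to 4733 in control siRNA arrays. After quantile normalization 0 of 8 erythroid, 0 of 4 mast cell, 0 of 6 lymphoid and 0 of 5 stromal and endothelial markers passed in limma, with 1, 0, 1 and 0 at an unadjusted p under 0.05. Of the megakaryocyte markers 8 of 13 were well above background on all 6 arrays, among them Pf4, Itgb3, Gp9, Gp1ba and Itga2b, and Ppbp was not above background on any. Of the myeloid markers 5 of 11 were well above background on all 6 arrays. The part of these cells in the results on Vim and Tspo2 was not tested, and in bulk RNA fewer cells of a type and less RNA per cell cannot be told apart.

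**Figure D5:**
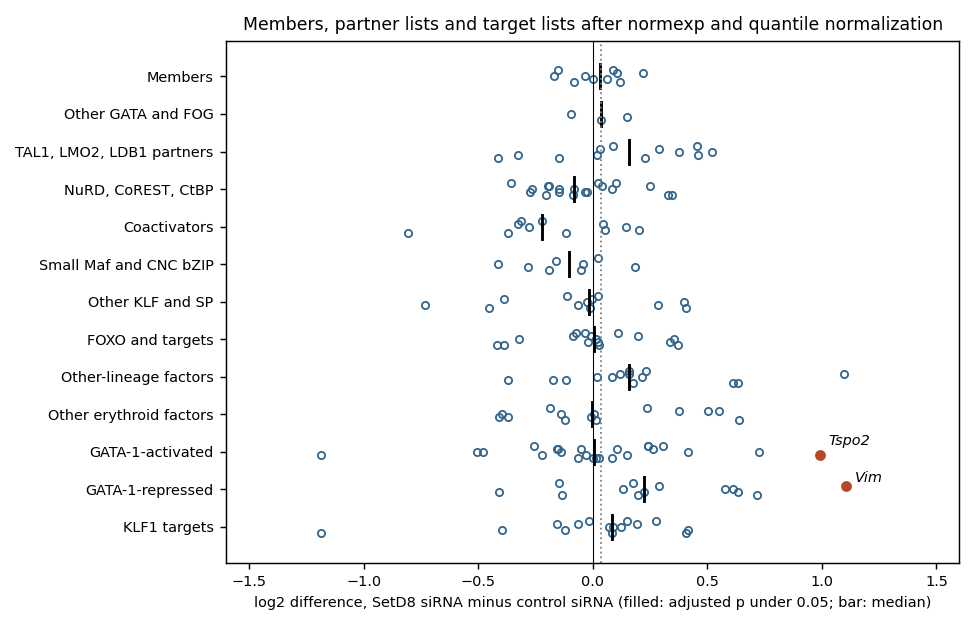
Log2 difference, SetD8 siRNA minus control siRNA, after normexp and quantile normalization, of the 10 genes (top row) and of each partner or target list, with a circle per gene. Filled circles passed an adjusted p of 0.05 in limma, black bars are list medians, and the dotted line is the median of all genes; Tspo2 and Vim are the 2 filled genes, and the 10 genes lie between -0.17 and 0.22.

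Other probes on the array lay near the members' loci. Within 60000 bases of a member's probe on mm9 there were 59 probes named for other genes or regions, 45 of them tested. None passed (limma, adjusted p from 0.242 upwards, with 7 at an unadjusted p under 0.05). In the fit of genes 15.8% of all genes had an unadjusted p under 0.05, and the share over all probes is not given here. The closest of these probes, annotated as TC1649157, lay 266 bases downstream of the Zfpm1 probe on the same strand, at chr8:124861353-124861412. It differed by 0.42 (limma adjusted p = 0.329), and its groups did not overlap, which held for 23.7% of all genes.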

How the data were processed

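The 10 genes, the lists and the use of quantile-normalized values for single genes were chosen with earlier results of these data known. RNA of 3 SetD8 siRNA and 3 control siRNA samples was hybridised to 1-colour Agilent arrays. The authors deposited linear spot intensity written by Feature Extraction 10.7.3.1, with probe positions on mm9 per the file headers. The submitters' processing notes name limma. The deposited series matrix holds the same processed intensity (100% of values equal within 0.006), without normalization between arrays; medians of its columns were 45.25, 23.93 and 30.07 for SetD8 1 to 3 and 28.84, 7.15 and 76.09 for control 1 to 3. The test the authors ran is not stated in the sources used here.

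Control and outlier spots were left out and spots of a probe averaged. Probes had to be well above background on every array of 1 or both groups. The such probe with the highest mean at the 75th percentile scaling stood for its gene. Values were log2 of the processed signal minus the 75th percentile, or normexp (offset 50) and quantile normalization, which shrinks folds of dim genes. Two-sided tests used limma 3.58.1 in R 4.3.3 (lmFit, eBayes; Benjamini-Hochberg over 14422 genes, threshold 0.05) and were checked on simulated data. Probes were tested in a fit of all 30949 kept probes. Beside the members and Setd8, the text names every gene of a partner or target list that passed, or else the list's 2 smallest p (some genes are not reported here), and the 3 genes nearest to the member of largest difference; Alas2, the called markers and TC1649157 were named after their values were seen. Alternatives covered filters, gene summaries, scalings, weights, blocks and left-out arrays.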

Additional observations from a re-analysis of the deposited data

How the results depend on the processing

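At the 75th percentile scaling, where 0 genes were called, the alternatives called 96 higher and 9 lower (probes well above background on all arrays), 18 higher (trend and robust moderation), 2379 and 3695 (array weights), 118 and 12 (slide as a block), 36 and 1 (normexp with the 75th percentile), 43 and 2 (quantile normalization) and 121 and 10 (75th percentile over detected probes). Leaving out an array gave 0 to 132 higher and 0 to 9 lower. After normexp and quantile normalization, where 210 were higher and 34 lower, they called 437 and 159 (probes well above background on all arrays), 639 and 337 (trend and robust moderation), 1986 and 1907 (array weights), 13 and 1 (slide as a block), 115 and 9 (offset 16) and 94 and 6 (every kept probe); leaving out an array gave 0 to 173 higher and 0 to 33 lower. With the replicate number as a block 0 were called higher and 0 lower. Deviations of same-numbered arrays from their group means correlated over genes at 0.19, -0.25 and -0.19 after normexp and quantile normalization. For arrays of unlike number the correlations were -0.21 to 0.28. Since the 3 deviations of a group are centred on its own mean, these values cannot show whether the numbers pair the samples. Setd8 had limma adjusted p = 0.141 with the replicate number as a block. Array weights called 3 of 10 members (42.1% of all genes) at the 75th percentile scaling and 1 of 10 (27% of all genes) after quantile normalization; no other alternative called a member.

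Directions of members at the 75th percentile scaling turned in some settings. With the slide as a block Gata2 was 0.0207, Zfpm1 0.15, Tal1 0.16, Ldb1 0.10, Klf1 0.15 and Nfe2 0.14. With quantile normalization Zfpm1 was 0.0828, Tal1 0.0907, Ldb1 0.0612, Klf1 0.0848 and Nfe2 0.19, and over detected probes Tal1 was 0.0138, Ldb1 0.0302 and Nfe2 0.0679. Foxo3 was -0.0849 over the mean of its probes (-0.0398 after normexp and quantile normalization) and -0.32 with median scaling, which moved the median of all genes to -0.45; over detected probes that median was 0.17. Leaving out an array gave -0.64 to 0.15 for Gata2, -0.52 to 0.20 for Zfpm1, -0.45 to 0.19 for Tal1, -0.43 to 0.16 for Ldb1, -0.55 to 0.23 for Klf1 and -0.33 to 0.17 for Nfe2. After normexp and quantile normalization it gave -0.18 to 0.20 for Gata2, -0.0148 to 0.12 for Klf1, -0.0189 to 0.31 for Gata5 and -0.31 to 0.0618 for Trps1. The cause of these changes was not tested. All 12 member probes were well above background on all 6 arrays.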
